A study of Mus musculus with 4 samples.

Results

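Ly6c2+ C1q+ cells of the mouse heart 7 days after myocardial infarction were the subject of these measurements. A cell was a member when it held at least 2 UMIs of Ly6c2 and at least 30 UMIs of C1qa, C1qb and C1qc together per 10000 of its UMIs. A UMI (unique molecular identifier) marks 1 captured RNA molecule. Of 31295 infarct cells, 779 were members, and the whole series held 41533 cells with its baseline library. Members were set against 1516 Ly6c2+ C1q-low cells, which had at least 2 Ly6c2 UMIs and less C1q than the limit, and against 23746 Ly6c2-negative C1q+ cells, which had no Ly6c2 UMI and C1q at or over the limit. Because the rule read Ly6c2 and C1q, their levels are given below as a description without a test.

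All hearts came from CSF1R-EGFP+ reporter mice (MacGreen) of 12 to 16 weeks, in which the Csf1r promoter drives EGFP in macrophages, monocytes and other myeloid cells. The infarct group had 3 droplet libraries of 1 heart each, collected 7 days after left coronary artery ligation, and the baseline group had 1 library from 3 pooled hearts without surgery. Cells were sorted as EGFP+ and Ly6G-, a gate that removes most neutrophils. The baseline library has no replicate, so its values were compared with those of infarcts without a test.

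In the mouse, Ly6c2 encodes Ly6C2, a surface protein that marks classical monocytes, which leave the blood through the chemokine receptor CCR2 and enter injured tissue. As these cells become macrophages they lose Ly6C and gain genes of phagocytosis and complement, among them C1qa, C1qb and C1qc, whose products form the recognition molecule of the classical complement pathway. In the infarcted heart, recruited monocytes and the macrophages that arise from them clear dead cells and support the growth of scar and vessels. A cell that carries both kinds of transcript can be a cell between these states, and a droplet that caught a monocyte together with a macrophage would carry them too. A single day of sampling does not show an order in time, so the members are named here by the genes of the rule.

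Across the 4 libraries, 10117 to 10782 cells were kept, with medians of 6399 UMIs per cell at baseline and 8470 to 8557 in infarcts. Any pair of libraries shared 26 to 34 cell barcodes. The labels call all cells macrophages, but 201 infarct barcodes carried B cell genes, 183 those of mature dendritic cells and 154 those of granulocytes. Genes outside the rule describe the members but do not test their label. The lists were chosen with earlier results of these data known. A droplet with a monocyte and a macrophage would also carry both kinds of gene. Of 27 monocyte genes tested, 23 were higher in members than in Ly6c2-negative C1q+ cells, where 6.09% of all genes were. Of 31 macrophage genes, 30 were higher than in Ly6c2+ C1q-low cells, where 6.97% of all genes were. Ly6c2 lies at chr15:75108158-75111970 on the minus strand of GRCm38, beside its near-identical copy Ly6c1. Counts of Ly6c1 stayed between 0.366 and 1.23 CPM (UMIs of a gene over all UMIs of the summed cells, scaled to the same total) in members, and the share of reads that the copies have in common is unknown.

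Members numbered 307, 265 and 207 in infarct replicates 1, 2 and 3. They made up 2.95% of replicate 1 (exact 95% binomial interval 2.64 to 3.30), 2.46% of replicate 2 (2.17 to 2.77) and 2.05% of replicate 3 (1.78 to 2.34). The mean share was 2.49% ± 0.454 (SD, n = 3 hearts), and the intervals of replicates 1 and 3 did not overlap. The baseline library held 116 such cells, 1.13% (0.937 to 1.36), below each infarct. These intervals cover counting error only.

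Among cells with at least 2 Ly6c2 UMIs, C1q was abundant in about the same share in each infarct. The share over the limit was 32.4% in replicate 1, 34.6% in replicate 2 and 35.6% in replicate 3, a mean of 34.2% ± 1.63 (SD, n = 3). In the baseline library it was 12.1%, or 116 of 958 cells. Cells with exactly 1 Ly6c2 UMI were over the C1q limit more often, in 56.8%, 64.7% and 68.6% of cases in the infarcts and 37.8% at baseline. C1q was spread widely over the Ly6c2+ cells. Below 5 C1q UMIs per 10000 lay 53.4%, 51.9% and 50.8% of them, between 15 and 30 lay 7.07%, 3.65% and 4.48%, and at 100 or more 11.3%, 18.3% and 20.0%. These ranges differ in width, so their shares do not show whether separate populations exist.

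**Figure D1:**
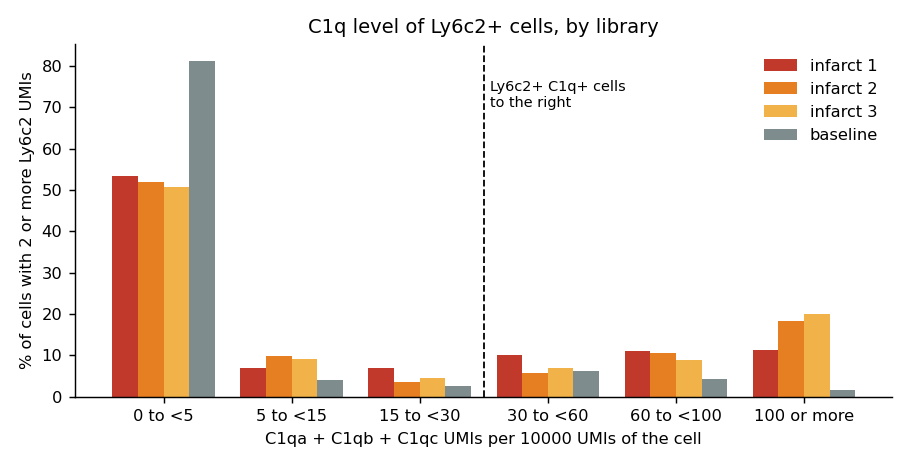
Share of cells with 2 or more Ly6c2 UMIs (vertical axis, %) in each range of C1qa, C1qb and C1qc UMIs per 10000 UMIs of the cell (horizontal axis), by library. The ranges differ in width, so bar heights are not a density. Infarct libraries have a tall bar below 5 and 11.3% to 20.0% of cells at 100 or more, where the baseline library has 1.57%.

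Few members lay close to the C1q limit. From 25 to 30 C1q UMIs per 10000 there were 13, 12 and 7 Ly6c2+ cells in replicates 1 to 3, and from 30 to 35 there were 13, 10 and 4. The Ly6c2 limit was closer. Exactly 2 Ly6c2 UMIs were found in 79, 70 and 55 members, 25.7%, 26.4% and 26.6% of them, and 272, 251 and 227 further C1q+ cells had 1 Ly6c2 UMI.

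Both gene sets of the rule were lower in members than in the group defined by each alone. The median C1q of members was 77.7, 103 and 110 UMIs per 10000 in replicates 1 to 3. In Ly6c2-negative C1q+ cells it was 141, 179 and 155, and in Ly6c2+ C1q-low cells 2.02, 2.23 and 2.46. Ly6c2 stood at 551, 805 and 578 CPM in members and at 917, 1415 and 1274 CPM in Ly6c2+ C1q-low cells. C1qa stood at 3311, 4391 and 4364 CPM in members and at 5543, 6839 and 5999 CPM in Ly6c2-negative C1q+ cells. Each level of members was thus below that of its reference group in the same heart, and ranges did not overlap.

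Members held more RNA per barcode than either reference group. Their median was 11424 UMIs in replicate 1, 11690 in replicate 2 and 12272 in replicate 3. Ly6c2+ C1q-low cells had 9075, 8438 and 8419 UMIs, and Ly6c2-negative C1q+ cells had 8492, 8460 and 8596. The ratio was 1.37 ± 0.101 (SD) to the former and 1.38 ± 0.0413 to the latter. These ratios are a description, because a minimum of 2 Ly6c2 UMIs, or none, favours deep or shallow barcodes by itself. With Ly6c2 set per depth they were 1.25 and 1.24. Over 16000 UMIs lay 24.4%, 24.2% and 30.9% of members, against 2.79% to 5.16% of Ly6c2+ C1q-low and 6.55% to 7.13% of Ly6c2-negative C1q+ cells. In the baseline library the ratios were larger, 1.69 and 2.13. Thinned to 4000 UMIs each, the median number of genes was 1632, 1593 and 1629.5 in members of replicates 1 to 3. It was 1645, 1582 and 1637.5 in Ly6c2+ C1q-low cells, above members in 2 of 3 hearts, and 1593, 1551 and 1589 in Ly6c2-negative C1q+ cells, below members in each.

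**Figure D2:**
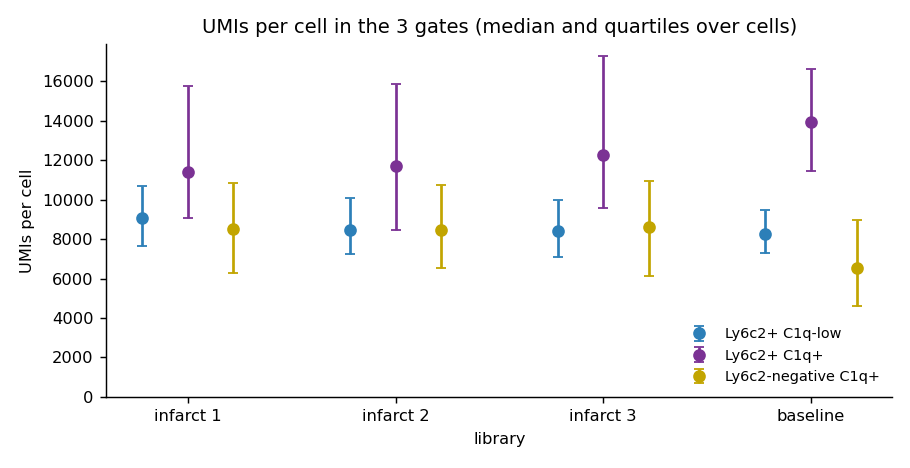
UMIs per cell (vertical axis, linear from 0) in the 3 groups of cells of each library, points at the median and bars from the lower to the upper quartile over cells. Members have the highest median in all 4 libraries, 11424 to 12272 in infarcts and 13941 at baseline.

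Doublet scores were high in a part of the members. With a removal set at 8 per 1000 for every 1000 cells, the highest-scoring barcodes took 76, 79 and 53 members of replicates 1 to 3, 24.8%, 29.8% and 25.6% of them. They took 1.59% to 4.06% of Ly6c2+ C1q-low cells and 8.36% to 9.04% of Ly6c2-negative C1q+ cells. Among members the loss rose with depth, from 8.51%, 3.85% and 11.8% of those with under 8000 UMIs to 50.7%, 60.9% and 51.6% of those at 16000 or more. At the same rate, random pairs of 1 cell from each reference group would number 74.4, 68.3 and 47.7, or 24.2%, 25.8% and 23.1% of the members, against 86.7 pairs (74.7%) at baseline, where 86 of 116 members (74.1%) were removed. That rate was assumed and not measured, so these pair numbers are arithmetic only. How much doublets contributed to each result below was not tested, and values without the removed barcodes are given where they change the call of a named gene.

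Other cells that should lack C1q also passed its limit at times. Barcodes with B cell genes did so in 57.6%, 70.3% and 62.9% of cases in replicates 1 to 3, with medians of 11355 to 13885 UMIs for those over the limit. Mature dendritic cells did so in 13.2%, 18.5% and 13.2%, and granulocytes in 27.9%, 34.9% and 14.0%. The median C1q of the barcodes under the limit was 1.21 to 5.05 UMIs per 10000 in these cell types, near the level of Ly6c2+ C1q-low cells. The share of members that carries C1q from outside the cell cannot be read from these values.

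Counts were summed per heart over each group, and edgeR compared these sums within hearts. A gene was called below an adjusted p of 0.01 (Benjamini-Hochberg). Since the groups were set by Ly6c2 and C1q of the same cells, a call says that within-heart differences exceeded their variation over 3 hearts. Each heart was a block in the fit, so differences in level between hearts were removed and are not part of that variation. A sum cannot tell fewer cells with a transcript from less of it per cell. Against Ly6c2+ C1q-low cells, 1345 of 10384 genes (13%) passed, 724 higher (6.97%) and 621 lower (5.98%). Against Ly6c2-negative C1q+ cells, 999 (9.62%) passed, 632 higher (6.09%) and 367 lower (3.53%). The counts of each gene list below are to be read beside these shares over all genes. The ranges of the 3 hearts did not overlap for 29.9% of genes in the former comparison and 33.1% in the latter. Both comparisons share the sums of the members, so they are not independent, and each one's own values are given side by side. Leaving out replicates 1, 2 or 3 left 645, 657 and 524 calls in the former and 205, 425 and 373 in the latter, and without the block there were 701 and 213.

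Members lay between the reference groups for genes that separate those groups. A position of 0 was given to the level in Ly6c2+ C1q-low cells and of 1 to that in Ly6c2-negative C1q+ cells, on the linear CPM scale. For 23 genes at least 4-fold higher in Ly6c2-negative C1q+ cells, the median position was 0.44, 0.54 and 0.61 in replicates 1 to 3. For 23 genes at least 4-fold higher in Ly6c2+ C1q-low cells it was 0.66, 0.70 and 0.79. On this linear scale, the median of the latter 23 genes thus lay nearer to 1 than that of the former in each heart. The sets were chosen from the same sums, and the order depends on the scale. By log2 fold change, Plac8 stood -1.75 from Ly6c2+ C1q-low cells and 4.51 from Ly6c2-negative C1q+ cells. Ms4a7 stood 2.67 and -0.85 from them. On the linear scale, the genes of the rule had positions of 0.62, 0.64 and 0.72 for C1q and of 0.40, 0.43 and 0.55 for Ly6c2. For each of these 4 measures the position was lowest in replicate 1 and highest in replicate 3.

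Most genes of classical monocytes were intermediate in members. Of 27 tested, 24 were lower than in Ly6c2+ C1q-low cells (median log2 fold change -1.13, against 0.0036 over all genes tested) and 23 were higher than in Ly6c2-negative C1q+ cells (median 1.42, against -0.0047). None passed in the opposite direction. Cybb, Fn1 and Thbs1 did not pass in the former comparison, and Itga4, Klf13, Cybb and Fn1 did not in the latter. The summed level of the list was 15131, 12882 and 11545 CPM in members, 24542 to 27468 CPM in Ly6c2+ C1q-low cells and 4829 to 7365 CPM in Ly6c2-negative C1q+ cells.

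Plac8, a gene abundant in blood monocytes, stood at 1111, 1258 and 804 CPM in members of replicates 1 to 3. It stood at 2850, 4130 and 3410 CPM in Ly6c2+ C1q-low cells and at 85.5, 30.0 and 32.1 CPM in Ly6c2-negative C1q+ cells. No ranges overlapped, and members were lower than the former (log2 fold change -1.75 ± 0.32 SE, adjusted p = 0.00321) and higher than the latter (log2 fold change 4.51 ± 0.36 SE, adjusted p = 7.1e-05). Ccr2, the receptor that draws monocytes to tissue, stood at 1241, 954 and 838 CPM in members, against 1702, 1550 and 1473 CPM in Ly6c2+ C1q-low and 579.8, 375 and 425 CPM in Ly6c2-negative C1q+ cells. No ranges overlapped, and both differences passed (log2 fold change -0.65, adjusted p = 0.000873, and log2 fold change 1.15, adjusted p = 7.96e-05). Where a pair of tests is given below, that against Ly6c2+ C1q-low cells comes first. Vcan, which encodes the matrix proteoglycan versican, stood at 174, 138 and 75.5 CPM in members, at 639, 492 and 329 CPM in Ly6c2+ C1q-low cells and at 15.3, 5.31 and 6.65 CPM in Ly6c2-negative C1q+ cells. It passed in both comparisons (log2 fold change -1.93, adjusted p = 0.000165, and log2 fold change 3.89, adjusted p = 1.64e-05).

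Chil3, a chitinase-like protein of recruited monocytes, stood at 204, 182 and 256 CPM in members, between 524, 609.7 and 801 CPM in Ly6c2+ C1q-low and 37.1, 12.7 and 22.1 CPM in Ly6c2-negative C1q+ cells (log2 fold change -1.61, adjusted p = 0.00229, and log2 fold change 3.23, adjusted p = 0.000122). Hp, which encodes haptoglobin, was at 182, 114 and 132 CPM, between 605, 524 and 699.6 CPM in Ly6c2+ C1q-low and 42.2, 3.604 and 14.3 CPM in Ly6c2-negative C1q+ cells (log2 fold change -2.18, adjusted p = 0.00917, and log2 fold change 3.17, adjusted p = 0.0025). Both were intermediate in each heart, with no overlap between groups. The enzyme gene Gsr (glutathione reductase), Napsa (an aspartic protease), Ms4a4c, Mcemp1, Ifitm6 (of the interferon-induced transmembrane family) and F13a1 (coagulation factor XIII A chain) passed in both comparisons in the same directions. Their fold changes ran from -1.95 for Ifitm6 to -0.76 for Ms4a4c against Ly6c2+ C1q-low cells, and from 0.68 for F13a1 to 2.33 for Mcemp1 against Ly6c2-negative C1q+ cells.

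Thbs1, which encodes the matrix protein thrombospondin-1, stood at 364, 528 and 377 CPM in members and at 790.4, 1244 and 711 CPM in Ly6c2+ C1q-low cells, without overlap, but did not pass there (log2 fold change -1.10, adjusted p = 0.0226). It passed with replicate 2 left out (adjusted p = 7.54e-05). Against 187, 92.6 and 189 CPM in Ly6c2-negative C1q+ cells it was higher (log2 fold change 1.42, adjusted p = 0.00906). Fn1, fibronectin, stood at 1442, 522 and 946 CPM in members, and its ranges overlapped those of both groups (adjusted p = 0.161 and 0.333). Cybb, a subunit of the phagocyte oxidase, was at 1011, 909.8 and 1017 CPM and overlapped with both as well.

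The monocyte calls rested on all 3 hearts to different degrees. Without replicate 3, Plac8 (adjusted p = 0.0436), Ccr2 (0.0147), Chil3 (0.0281), Hp (0.0862), Ifitm6 (0.0446), Ms4a4c (0.0177) and Mcemp1 (0.0645) no longer passed against Ly6c2+ C1q-low cells, and without replicate 1 Mcemp1 (0.0187) and Ms4a4c (0.0116) did not. Against Ly6c2-negative C1q+ cells, F13a1 (0.0333) and Thbs1 (0.0426) did not pass without replicate 1, F13a1 (0.0168) without replicate 2, and Hp (0.0288), Ifitm6 (0.0223), Mcemp1 (0.0148) and Thbs1 (0.0268) without replicate 3. Without the removed doublet barcodes, Ms4a4c (0.0262) lost its call in the former comparison, and F13a1 (0.127) and Thbs1 (0.0139) lost theirs in the latter. Without the block, Ccr2, F13a1, Hp, Ifitm6, Mcemp1, Ms4a4c, Plac8 and Vcan lost theirs in the former (0.0103 to 0.172), and F13a1, Hp, Ifitm6 and Thbs1 in the latter (0.0185 to 0.0841). In cells of at most 10000 UMIs, Ccr2 (log2 fold change -0.24, adjusted p = 0.116) and Ms4a4c (-0.16, adjusted p = 0.492) did not pass against Ly6c2+ C1q-low cells, nor F13a1 (0.32, adjusted p = 0.341), Ifitm6 (adjusted p = 0.0126) and Mcemp1 (0.0181) against Ly6c2-negative C1q+ cells. No sign changed in these settings.

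**Figure D3:**
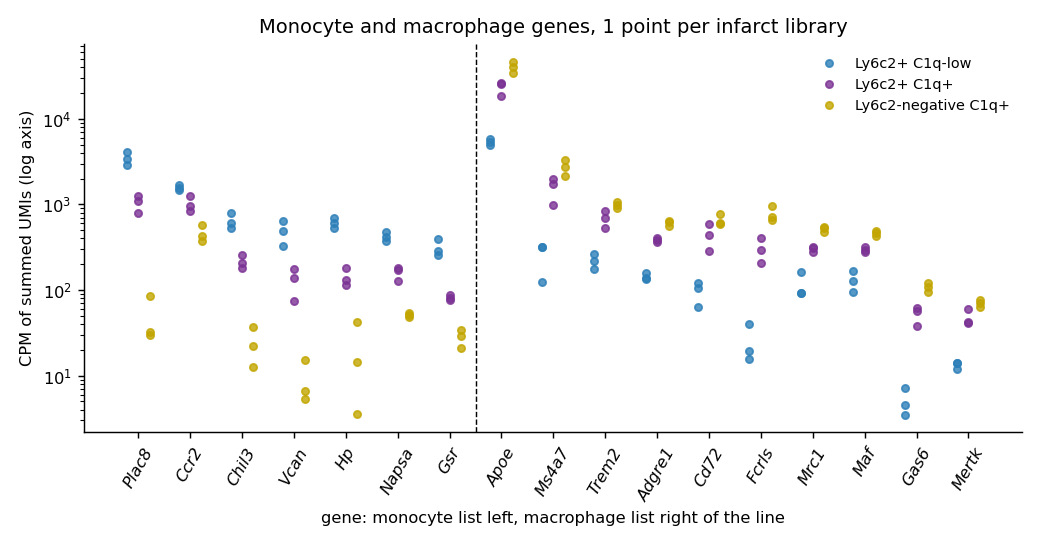
CPM of summed UMIs (vertical axis, log scale) of monocyte genes (left of the dashed line) and macrophage genes (right), 1 point for each infarct library in each of the 3 groups of cells. Members lie between the reference groups for each gene plotted, for example at 804 to 1258 CPM for Plac8 and 989 to 1977 CPM for Ms4a7.

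Genes of macrophage maturation were present in members at intermediate levels. Of 31 tested, 30 were higher than in Ly6c2+ C1q-low cells (median log2 fold change 1.46), all but Fcgr1, and 17 were lower than in Ly6c2-negative C1q+ cells (median -0.57). None passed in the other direction. The summed level was 38067, 48963 and 50793 CPM in members, 14910 to 16630 CPM in Ly6c2+ C1q-low cells and 62138 to 77112 CPM in Ly6c2-negative C1q+ cells. Apoe, the lipid carrier apolipoprotein E, made up much of it, at 18453, 25334 and 26502 CPM in members. It stood at 4909, 5799 and 5417 CPM in Ly6c2+ C1q-low cells and at 34677, 46515 and 39772 CPM in Ly6c2-negative C1q+ cells (log2 fold change 2.12 ± 0.063 SE, adjusted p = 1.47e-07; log2 fold change -0.77 ± 0.061 SE, adjusted p = 6.77e-05). The groups did not overlap, yet the DESeq2 Wald test gave adjusted p values of 0.0397 and 0.588.

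Ms4a7, a membrane protein of macrophages, stood at 989, 1977 and 1719 CPM in members of replicates 1 to 3, between 124, 316 and 321 CPM in Ly6c2+ C1q-low and 2166, 3319 and 2730 CPM in Ly6c2-negative C1q+ cells. It was higher than in Ly6c2+ C1q-low cells (log2 fold change 2.67 ± 0.15 SE, adjusted p = 5.02e-06) and lower than in Ly6c2-negative C1q+ cells (log2 fold change -0.85 ± 0.14 SE, adjusted p = 0.0031). Adgre1, the gene of the macrophage antigen F4/80, was at 367, 410.0 and 387 CPM, between 156, 133 and 138 CPM in Ly6c2+ C1q-low and 616, 639 and 556 CPM in Ly6c2-negative C1q+ cells (log2 fold change 1.45, adjusted p = 3.82e-06, and log2 fold change -0.62, adjusted p = 0.000509). Mertk, a receptor for the engulfment of dead cells, was at 42.3, 40.7 and 60.4 CPM, between 13.9, 12.1 and 13.9 CPM in Ly6c2+ C1q-low and 71.0, 64.1 and 77.3 CPM in Ly6c2-negative C1q+ cells (log2 fold change 1.82, adjusted p = 8.76e-06, and log2 fold change -0.57, adjusted p = 0.00205). None of these 3 genes overlapped between groups. Trem2, a lipid-sensing receptor, ranged from 531 to 834 CPM in members, from 176 to 264 CPM in Ly6c2+ C1q-low cells and from 909 to 1081 CPM in Ly6c2-negative C1q+ cells (log2 fold change 1.65, adjusted p = 4.71e-06, and log2 fold change -0.54, adjusted p = 0.00277). Cx3cr1 (the fractalkine receptor), Mrc1 (the mannose receptor) and Maf (a transcription factor of mature macrophages) showed the same order, with fold changes of 1.13, 1.39 and 1.20 against the former and -0.72, -0.77 and -0.63 against the latter.

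Among called genes averaging 50 CPM or more, the 8 highest fold changes over Ly6c2+ C1q-low cells were those of Ccl8, Fcrls, Gas6, Olfml3, Serpinb6a, Cd81, Ms4a7 and Hpgds. Ccl8, a chemokine of tissue macrophages, stood at 184, 264 and 216 CPM in members and 6.52, 25.9 and 3.71 CPM in those cells (log2 fold change 4.36 ± 0.33 SE, adjusted p = 2.04e-05), and did not pass against the 267, 561 and 182 CPM of Ly6c2-negative C1q+ cells (log2 fold change -0.44, adjusted p = 0.225). Fcrls, an Fc receptor-like gene of macrophages and microglia, stood at 206, 407 and 296 CPM, between 19.6, 39.8 and 15.8 CPM in Ly6c2+ C1q-low and 653, 948 and 713 CPM in Ly6c2-negative C1q+ cells (log2 fold change 3.59, adjusted p = 1.76e-06, and log2 fold change -1.37, adjusted p = 0.000164). Gas6, a ligand that bridges dying cells to MERTK and AXL, was at 38.5, 57.7 and 61.2 CPM, between 4.52, 3.49 and 7.12 CPM in Ly6c2+ C1q-low and 95.2, 122 and 108 CPM in Ly6c2-negative C1q+ cells (log2 fold change 3.39, adjusted p = 4.55e-06, and log2 fold change -1.05, adjusted p = 0.000393). All of these stood clear of Ly6c2+ C1q-low cells in each heart. Cd81 (a tetraspanin), Hpgds (prostaglandin D synthase), Olfml3 and Serpinb6a (a serine protease inhibitor) passed in both comparisons, from 2.44 to 2.93 against the former and from -1.25 to -0.75 against the latter.

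Lower in members than in Ly6c2-negative C1q+ cells were also Gdf15, Gpr34, Hist1h2bc and Pmepa1. Gdf15, a stress-induced cytokine of the TGF-beta family, stood at 19.7, 62.3 and 36.6 CPM against 82.5, 151 and 87.1 CPM (log2 fold change -1.47 ± 0.24 SE, adjusted p = 0.0025). Gpr34, a lysophosphatidylserine receptor, stood at 28.7, 61.7 and 39.2 CPM against 77.7, 117 and 103 CPM (log2 fold change -1.22 ± 0.15 SE, adjusted p = 0.000684). Members were lower in each heart for both. Pmepa1, a gene induced by TGF-beta, was at 57.1, 103 and 76.9 against 183, 187 and 155 CPM, and the histone gene Hist1h2bc at 52.1, 63.6 and 70.3 against 131, 168 and 127 CPM (-1.16 and -1.19). Cd72, a lectin-like receptor, was higher than in Ly6c2+ C1q-low cells (log2 fold change 2.17, adjusted p = 1.29e-05) and did not pass against Ly6c2-negative C1q+ cells (log2 fold change -0.63, adjusted p = 0.011).

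Not all macrophage genes separated members from Ly6c2-negative C1q+ cells. Cd68, a lysosomal protein of phagocytes, stood at 506, 671 and 631 CPM in members, against 447, 458 and 490.3 CPM in Ly6c2+ C1q-low and 525, 620.2 and 524 CPM in Ly6c2-negative C1q+ cells (log2 fold change 0.37, adjusted p = 0.0067, and log2 fold change 0.13, adjusted p = 0.277). Csf1r, the receptor whose promoter drives the reporter, was intermediate at 646, 635 and 696 CPM, between 506, 461 and 477 CPM in Ly6c2+ C1q-low and 836, 822 and 841 CPM in Ly6c2-negative C1q+ cells (log2 fold change 0.46, adjusted p = 0.000228, and log2 fold change -0.32, adjusted p = 0.00216). Fcgr1, the high-affinity IgG receptor, stood at 379, 500.1 and 378 CPM and passed in neither comparison (adjusted p = 0.229 and 0.0229).

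The differences from Ly6c2-negative C1q+ cells were those that depended most on single hearts. Without replicate 1, Cd81, Csf1r, Cx3cr1, Gdf15, Hpgds, Maf, Mertk and Trem2 lost their calls there (adjusted p 0.0108 to 0.0405), without replicate 2 Csf1r, Hpgds, Maf, Mertk, Mrc1, Ms4a7 and Trem2 (0.0117 to 0.035), and without replicate 3 Csf1r, Gpr34 and Mrc1 (0.0109 to 0.0368). Against Ly6c2+ C1q-low cells, Cd68 and Gdf15 lost theirs without replicate 1 (0.0147 and 0.0177), Cd68 and Gdf15 without replicate 2 (0.0627 and 0.0493), and Cd68 without replicate 3 (0.03). Without doublet barcodes, Gdf15 (0.0379) and Hist1h2bc (0.0356) lost theirs against Ly6c2+ C1q-low cells. Without the block, 18 of the macrophage genes named here lost the call against Ly6c2-negative C1q+ cells (0.0105 to 0.201). Cd72 passed there in cells of at most 10000 UMIs (0.00493).

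The MHC class II genes H2-Aa, H2-Ab1, H2-Eb1 and Cd74 were higher in members than in either reference group. MHC class II molecules present peptides to CD4 T cells: H2-Aa and H2-Ab1 encode the chains of I-A, H2-Eb1 a chain of I-E, and Cd74 the invariant chain. The list of 11 genes also held Cd86 and Klrd1, which encode no chain of these molecules. Of the 11, 4 were higher and 1, Klrd1, lower than in Ly6c2+ C1q-low cells (median -0.05), and 7 were higher and 0 lower than in Ly6c2-negative C1q+ cells (median 0.50). The summed level was 28421, 25266 and 22138 CPM in members, 14077 to 15525 CPM in the former and 18011 to 20624 CPM in the latter. Of genes averaging 50 CPM or more, 7 were higher than in both groups, and 4 of them were H2-Aa, H2-Ab1, H2-Eb1 and Cd74. The others were H2-Q7, a non-classical MHC class I gene, Bst2 (tetherin) and the gene model Gm34084, and 0 genes were lower than in both.

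Upstream of the transcription start, class II genes share short elements, the X and Y boxes, to which RFX, NF-Y and CIITA-containing complexes attach. The 150 bases before the RefSeq start (GRCm38.p6) were searched for H2-Aa, H2-Ab1 and H2-Eb1, which all exceeded both groups. Those of H2-Aa and H2-Eb1 are shown because they held a match, and no match was found for H2-Ab1. Capitals mark the Y box core CTGATTGG, and in H2-Eb1 also the X box core CAACNGATG, which was not found in H2-Aa. H2-Aa lies at chr17:34287824-34287973 on the minus strand, and H2-Eb1 at chr17:34305717-34305866 on the plus strand.
H2-Aa: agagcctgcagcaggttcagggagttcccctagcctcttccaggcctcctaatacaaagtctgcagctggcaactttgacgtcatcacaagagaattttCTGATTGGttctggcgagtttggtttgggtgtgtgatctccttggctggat
H2-Eb1: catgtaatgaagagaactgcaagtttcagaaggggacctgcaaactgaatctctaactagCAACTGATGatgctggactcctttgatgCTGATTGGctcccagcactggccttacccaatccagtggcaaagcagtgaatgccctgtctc

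The Y box core began 51 bases before the start of H2-Aa and 62 bases before that of H2-Eb1, where the X box core began 90 bases before it. Both were on the strand of the gene, and they did not overlap. Both strands were searched, and 3.16% of 32851 promoters held the Y box core and 0.301% the X box core in the same 150 bases. A match describes letters and shows no binding in these cells. Only these letters were searched, with N as any base, so a promoter without a match may hold another form of the box.

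H2-Aa stood at 5451, 4750 and 4028 CPM in members of replicates 1 to 3. It stood at 2773, 2513 and 2409 CPM in Ly6c2+ C1q-low cells and at 3854, 3443 and 3155 CPM in Ly6c2-negative C1q+ cells. Members were above both groups in each heart, without overlap (log2 fold change 0.88 ± 0.051 SE, adjusted p = 4.96e-06; log2 fold change 0.46 ± 0.05 SE, adjusted p = 0.000393). H2-Ab1 stood at 5238, 4410 and 3940 CPM in members, against 2724, 2414 and 2398 CPM in Ly6c2+ C1q-low and 3608, 3114 and 2976 CPM in Ly6c2-negative C1q+ cells (log2 fold change 0.85, adjusted p = 5.58e-06, and log2 fold change 0.50, adjusted p = 0.000224). H2-Eb1 stood at 4081, 3795 and 3154 CPM, against 1726, 1628 and 1706 CPM in Ly6c2+ C1q-low and 3088, 2958 and 2678 CPM in Ly6c2-negative C1q+ cells (log2 fold change 1.12, adjusted p = 5.58e-06, and log2 fold change 0.35, adjusted p = 0.00503). Cd74 stood at 12504, 11217 and 10024 CPM, against 7123, 6635 and 6496 CPM in Ly6c2+ C1q-low and 9264, 8391 and 8477 CPM in Ly6c2-negative C1q+ cells (log2 fold change 0.74, adjusted p = 8.76e-06, and log2 fold change 0.38, adjusted p = 0.000707). All 4 were above the reference groups in 3 of 3 hearts, and in the baseline library all 4 were between them. C1q+ cells with 1 Ly6c2 UMI, which belonged to no group, had H2-Aa at 4946, 4227 and 3446 CPM in replicates 1 to 3. These levels lay between members and Ly6c2-negative C1q+ cells in each heart.

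The rest of the class II list moved in part. H2-DMa and H2-DMb1, which encode chains of the peptide-loading molecule, stood at 412 to 463 and 378 to 430.2 CPM in members, against 414 to 473 and 378 to 425 CPM in Ly6c2+ C1q-low cells (adjusted p = 0.612 and 0.857). H2-DMb1 did pass there in cells of at most 10000 UMIs (log2 fold change 0.60, adjusted p = 0.000825) and when gated after thinning (0.47, adjusted p = 0.00956). Its value was -0.12 for members with 2 or 3 Ly6c2 UMIs, set against all Ly6c2+ C1q-low cells. H2-DMa and H2-DMb1 were higher than the 288 to 333 and 243 to 271 CPM of Ly6c2-negative C1q+ cells (log2 fold change 0.50, adjusted p = 0.00103, and log2 fold change 0.69, adjusted p = 8.59e-05). Ciita, the coactivator of class II genes, passed in the same comparison, at 129, 81.8 and 85.7 CPM against 126, 109.9 and 84.8 CPM in Ly6c2+ C1q-low and 80.1, 51.9 and 55.5 CPM in Ly6c2-negative C1q+ cells (log2 fold change -0.12, adjusted p = 0.447, and log2 fold change 0.68, adjusted p = 0.00163). The gene lower than in Ly6c2+ C1q-low cells was Klrd1, which encodes CD94 of natural killer cells, at 7.97, 20.4 and 3.30 against 43.3, 48.4 and 60.4 CPM (log2 fold change -2.26, adjusted p = 0.00158).

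Class II transcripts were spread widely over single cells. Per 10000 UMIs of a cell, the sum of H2-Aa, H2-Ab1, H2-Eb1 and Cd74 had a median of 291, 193 and 182 in members of replicates 1 to 3. The quartiles were 96.5 and 462 in replicate 1, 43.0 and 412 in replicate 2, and 30.7 and 377 in replicate 3. In Ly6c2+ C1q-low cells the medians were 45.4, 35.6 and 20.9, and in Ly6c2-negative C1q+ cells 87.5, 47.8 and 50.3. The median of members was the highest in each infarct. Conventional dendritic cells and B cells also carry class II genes. Their marker lists summed to 51.6 to 82.9 and 214 to 301 CPM in members, against 170 to 214 and 173 to 299 CPM in Ly6c2+ C1q-low cells, and 18.6 to 28.4 and 224 to 266 CPM in Ly6c2-negative C1q+ cells. Their part in the result was not tested.

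The differences of H2-Aa were larger when deep or high-scoring barcodes were left out. Without doublet barcodes, H2-Aa had log2 fold changes of 1.10 and 0.66 against Ly6c2+ C1q-low and Ly6c2-negative C1q+ cells, and in cells of at most 10000 UMIs 1.72 and 0.94. Single hearts bore on the latter comparison. Without replicate 1, Cd74 (adjusted p = 0.0193), H2-Aa (0.0109), H2-Eb1 (0.0617), H2-DMa (0.0171) and Ciita (0.0239) did not pass, without replicate 2 H2-Eb1 (0.0338) did not, and without replicate 3 Ciita (0.0127) did not. Without the block, Cd74 (0.0185), H2-Aa (0.0334), H2-Ab1 (0.0198), H2-Eb1 (0.0503), H2-DMa (0.0112) and Ciita (0.0707) did not. Against Ly6c2+ C1q-low cells H2-Aa, H2-Ab1, H2-Eb1 and Cd74 passed with any heart left out and without the block.

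**Figure D4:**
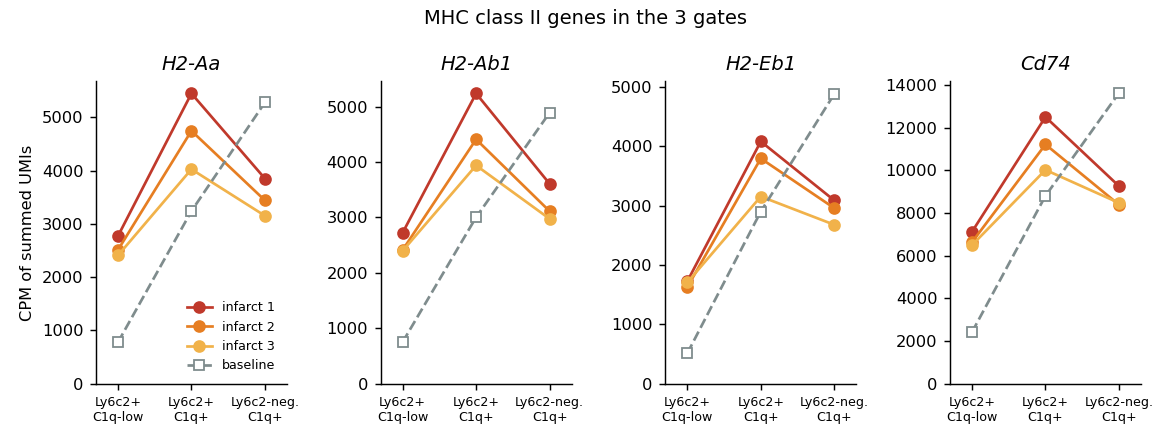
CPM of summed UMIs (vertical axes, linear from 0) of H2-Aa, H2-Ab1, H2-Eb1 and Cd74 in the 3 groups of cells (horizontal axis), 1 line for each library. In the infarcts the members are highest, at 4028 to 5451 CPM for H2-Aa, while at baseline the level is highest in Ly6c2-negative C1q+ cells.

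Of the other genes above both groups, H2-Q7 stood at 101, 123 and 128 CPM in members, against 69.2, 93.6 and 86.4 CPM in Ly6c2+ C1q-low and 75.5, 91.1 and 65.1 CPM in Ly6c2-negative C1q+ cells (log2 fold change 0.51, adjusted p = 0.00985, and log2 fold change 0.62, adjusted p = 0.00337). Gm34084 stood at 139, 165 and 166 CPM, against 90.2, 119 and 129 CPM in Ly6c2+ C1q-low and 108, 124 and 128 CPM in Ly6c2-negative C1q+ cells (log2 fold change 0.49, adjusted p = 0.00121, and log2 fold change 0.40, adjusted p = 0.00367). Bst2, an interferon-induced protein that tethers virus particles, stood at 529, 807 and 622 CPM, against 431, 669 and 505 CPM in Ly6c2+ C1q-low and 442, 639 and 534 CPM in Ly6c2-negative C1q+ cells (log2 fold change 0.29, adjusted p = 0.00362, and log2 fold change 0.29, adjusted p = 0.00501). The differences were small, and Bst2 overlapped between groups while it was higher in members within each heart. All 3 lost calls when a heart was left out. Without replicate 1, Bst2 (adjusted p = 0.0404 and 0.0533 in the comparisons with Ly6c2+ C1q-low and Ly6c2-negative C1q+ cells), Gm34084 (0.0137 and 0.0199) and H2-Q7 (0.0501 and 0.0175) did not pass. Without replicate 2 Bst2 (0.0196 and 0.0502), Gm34084 (0.0108 and 0.0338) and H2-Q7 (0.0313 and 0.0114) did not, and without replicate 3 Bst2 (0.0232 and 0.0173) and H2-Q7 (0.0142 and 0.0158) did not in either, nor Gm34084 (0.0214) in the latter. Without the block none of them passed (0.0458 to 0.447).

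A part of the interferon-response list was higher in members than in Ly6c2-negative C1q+ cells. Of 22 tested, 1 (Bst2) was higher and 0 lower than in Ly6c2+ C1q-low cells (median 0.25), and 8 were higher and 0 lower than in Ly6c2-negative C1q+ cells (median 0.56). The 8 were Bst2, Ifi205, Irf7, Isg15, Ly6a, Phf11b, Slfn5 and Zbp1. Irf7, a transcription factor of the type I interferon response, stood at 193, 355 and 202 CPM in members, against 142, 331 and 190.1 CPM in Ly6c2+ C1q-low and 90.02, 145 and 113 CPM in Ly6c2-negative C1q+ cells (log2 fold change 0.21, adjusted p = 0.198, and log2 fold change 1.09, adjusted p = 0.000234). Isg15, a ubiquitin-like protein, stood at 265, 588 and 127 CPM, against 239.7, 635 and 242 CPM in Ly6c2+ C1q-low and 103, 145 and 101 CPM in Ly6c2-negative C1q+ cells (log2 fold change -0.23, adjusted p = 0.554, and log2 fold change 1.29, adjusted p = 0.00612). Zbp1, a sensor of nucleic acid, stood at 145, 201 and 106 CPM, against 174, 294 and 142 CPM in Ly6c2+ C1q-low and 70.9, 80.3 and 68.1 CPM in Ly6c2-negative C1q+ cells (log2 fold change -0.41, adjusted p = 0.0638, and log2 fold change 1.01, adjusted p = 0.00118). Replicate 2 was the highest heart in all groups for each of these genes. Irf7 passed against Ly6c2+ C1q-low cells in cells of at most 10000 UMIs (log2 fold change 0.89, adjusted p = 0.000485) and for members with at least 8 Ly6c2 UMIs (0.77, adjusted p = 0.00165). For members with 2 or 3 its value was -0.19, and in both cases all Ly6c2+ C1q-low cells were the reference.

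Ly6a, which encodes the interferon-inducible surface protein Sca-1, was the highest in members of each heart. It stood at 329, 611 and 386 CPM in members, at 182, 483 and 267 CPM in Ly6c2+ C1q-low cells and at 69.5, 92.6 and 71.5 CPM in Ly6c2-negative C1q+ cells. It was higher than in the latter (log2 fold change 2.47 ± 0.15 SE, adjusted p = 1.78e-05), with no overlap. Against Ly6c2+ C1q-low cells it did not pass (log2 fold change 0.56 ± 0.15 SE, adjusted p = 0.0204). It did pass there without replicate 2 (adjusted p = 0.00447), without doublet barcodes (0.00204) and at no more than 10000 UMIs (0.000163). For members with 2 or 3 Ly6c2 UMIs, set against all Ly6c2+ C1q-low cells, the sign turned (log2 fold change -0.11). Ifitm1, an interferon-induced transmembrane gene, varied widely between hearts, at 70.7, 247 and 17.9 CPM in members, against 343, 471 and 148 CPM in Ly6c2+ C1q-low and 20.5, 21.0 and 3.52 CPM in Ly6c2-negative C1q+ cells (log2 fold change -1.82, adjusted p = 0.00415, and log2 fold change 2.77, adjusted p = 0.000884). Without replicates 1 or 3 its former call was lost (0.0226 and 0.0291). Isg15 lost its call without replicate 1 (0.0633) or 2 (0.0242), Zbp1 without replicate 1 (0.023), and without the block Ifitm1, Irf7, Isg15 and Zbp1 lost theirs (0.0494 to 0.108).

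Inflammatory mediators were mixed in members. Of 20 tested, 4 were higher and 3 lower than in Ly6c2+ C1q-low cells (median 0.19), and 5 were higher and 3 lower than in Ly6c2-negative C1q+ cells (median -0.07). Il1b, the cytokine interleukin-1 beta, stood at 900.0, 1657 and 787 CPM in members, between 1550, 2923 and 1385 CPM in Ly6c2+ C1q-low and 565, 648 and 515 CPM in Ly6c2-negative C1q+ cells (log2 fold change -0.80, adjusted p = 0.00251, and log2 fold change 0.88, adjusted p = 0.00219). Tnf, a pro-inflammatory cytokine, ran the other way, at 26.3, 37.6 and 25.3 CPM, between 11.4, 17.9 and 13.3 CPM in Ly6c2+ C1q-low and 43.5, 58.5 and 45.4 CPM in Ly6c2-negative C1q+ cells (log2 fold change 1.09, adjusted p = 0.000145, and log2 fold change -0.71, adjusted p = 0.000687). Both were intermediate in each heart, Il1b highest on the Ly6c2+ C1q-low side and Tnf on the Ly6c2-negative C1q+ side.

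Chemokines that attract monocytes were expressed in members. Ccl2, the main ligand of CCR2, stood at 347, 679 and 436 CPM, against 599, 563 and 472 CPM in Ly6c2+ C1q-low and 248.8, 236 and 177 CPM in Ly6c2-negative C1q+ cells (log2 fold change -0.18, adjusted p = 0.489, and log2 fold change 1.14, adjusted p = 0.00176). Ccl7, another CCR2 ligand, stood at 153, 359 and 222 CPM, against 169.6, 269 and 86.1 CPM in Ly6c2+ C1q-low and 116, 119.6 and 82.6 CPM in Ly6c2-negative C1q+ cells (log2 fold change 0.52, adjusted p = 0.152, and log2 fold change 1.17, adjusted p = 0.00748). Ccl12, a further CCR2 ligand, stood at 186, 711 and 223 CPM, against 60.9, 159.5 and 47.4 CPM in Ly6c2+ C1q-low and 393, 627 and 369 CPM in Ly6c2-negative C1q+ cells (log2 fold change 2.00, adjusted p = 0.000165, and log2 fold change -0.53, adjusted p = 0.087). Ccl2 and Ccl7 were thus above Ly6c2-negative C1q+ cells in each heart, and Ccl12 above Ly6c2+ C1q-low cells. Cxcl2, a neutrophil chemokine, stood at 338, 825 and 866 CPM and passed in neither comparison (adjusted p = 0.377 and 0.311).

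Without replicate 1, Il1b (adjusted p = 0.0205 and 0.0191 against Ly6c2+ C1q-low and Ly6c2-negative C1q+ cells), and Ccl7 (0.0107) and Tnf (0.0109) against the latter did not pass. Without replicate 2 Ccl7 (0.0411) did not, and without replicate 3 Il1b against the former (0.0192) and Ccl2 (0.0267), Ccl7 (0.0297) and Tnf (0.0114) against the latter did not. In cells of at most 10000 UMIs, Ccl2 (0.238) and Ccl7 (0.322) did not pass against Ly6c2-negative C1q+ cells, nor Il1b (0.064) and Tnf (0.162) against Ly6c2+ C1q-low cells. The difference of Tnf from Ly6c2+ C1q-low cells also failed after thinning to 4000 UMIs (adjusted p = 0.028), and its log2 fold change was 0.0051 (adjusted p = 0.999) when cells were gated after thinning. Ccl12 passed against Ly6c2-negative C1q+ cells without replicate 2 (log2 fold change -0.89, adjusted p = 0.00218). Without the block, Ccl12, Il1b and Tnf lost the former calls (0.0159 to 0.143) and Ccl2, Ccl7, Il1b and Tnf the latter (0.0175 to 0.102).

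Several reparative and lipid-handling genes were higher in members than in Ly6c2+ C1q-low cells. Of 21 tested, 10 were higher and 0 lower (median 1.04), and against Ly6c2-negative C1q+ cells 1 was higher, Lgals3 (galectin-3), and 6 were lower (median -0.42). Spp1, the matrix protein osteopontin, stood at 1387, 1552 and 1700 CPM in members, against 879, 869.8 and 1168 CPM in Ly6c2+ C1q-low and 1397, 1407 and 979 CPM in Ly6c2-negative C1q+ cells (log2 fold change 0.68, adjusted p = 0.0101, and log2 fold change 0.30, adjusted p = 0.191). Gpnmb, a glycoprotein of lipid-laden macrophages, stood at 189, 83.0 and 311 CPM, against 74.8, 37.5 and 179.8 CPM in Ly6c2+ C1q-low and 176, 142 and 183 CPM in Ly6c2-negative C1q+ cells (log2 fold change 1.06, adjusted p = 0.0236, and log2 fold change 0.03, adjusted p = 0.953). Neither passed in either comparison. Against Ly6c2+ C1q-low cells both passed without replicate 3 (adjusted p = 0.000458 for Spp1 and 0.00722 for Gpnmb) and without the barcodes of highest doublet score (adjusted p = 0.00334 and 0.00723), and also at no more than 10000 UMIs (log2 fold change 1.61 for Spp1, adjusted p = 6.16e-07, and 2.02 for Gpnmb, adjusted p = 0.00476). In those cells Spp1 passed against Ly6c2-negative C1q+ cells too (log2 fold change 0.61, adjusted p = 0.0013).

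Genes of a state marked by Saa3 and Arg1 varied widely between hearts. Of 14 genes, 2 were higher and 1 lower than in Ly6c2+ C1q-low cells (median 0.20), and 1 was higher and 0 lower than in Ly6c2-negative C1q+ cells (median 0.0075). Arg1, the arginine-degrading enzyme, stood at 417, 74.0 and 425 CPM in members, against 133, 139.5 and 69.96 CPM in Ly6c2+ C1q-low and 412, 59.7 and 256 CPM in Ly6c2-negative C1q+ cells (log2 fold change 1.01, adjusted p = 0.231, and log2 fold change 0.41, adjusted p = 0.614). Saa3, an acute-phase protein, stood at 1008, 6.79 and 465 CPM, against 326, 65.9 and 60.7 CPM in Ly6c2+ C1q-low and 1511, 62.6 and 549 CPM in Ly6c2-negative C1q+ cells (log2 fold change 1.08, adjusted p = 0.301, and log2 fold change -0.59, adjusted p = 0.533). Replicate 2 was the lowest heart in members for both. Without it both were higher than in Ly6c2+ C1q-low cells (adjusted p = 0.000139 and 0.000353).

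The resident cardiac macrophage list summed to 692, 418 and 596 CPM in members, against 684, 510 and 612 CPM in Ly6c2+ C1q-low and 735, 568 and 742 CPM in Ly6c2-negative C1q+ cells. Members lay below Ly6c2-negative C1q+ cells in each heart. Of 11 tested, 6 were higher and 1 lower than in Ly6c2+ C1q-low cells (median 2.23), and 1 was higher and 2 lower than in Ly6c2-negative C1q+ cells (median -0.94). The 1 lower and the 1 higher gene were both F13a1 (log2 fold changes -1.13 and 0.68), which is also on the classical monocyte list. Its counts are part of the sum, so the sum does not measure resident genes alone. Timd4, a phosphatidylserine receptor that marks long-lived resident cells, stood at 0.0, 0.0 and 0.366 CPM and was too low to test. Lyve1, a hyaluronan receptor, stood at 9.30, 0.309 and 2.20 CPM, against 20.0, 4.44 and 32.7 CPM in Ly6c2-negative C1q+ cells (log2 fold change -2.11, adjusted p = 0.00779). Folr2, a folate receptor, stood at 48.4, 37.0 and 66.7 CPM in members, against 3.18, 6.05 and 3.405 CPM in Ly6c2+ C1q-low and 72.2, 58.8 and 74.7 CPM in Ly6c2-negative C1q+ cells (log2 fold change 3.57, adjusted p = 9.58e-06, and log2 fold change -0.44, adjusted p = 0.0541). Siglec1, a sialic acid-binding adhesion molecule, stood at 24.2, 28.4 and 30.4 CPM, against 9.03, 16.1 and 10.2 CPM in Ly6c2+ C1q-low and 19.4, 19.3 and 21.7 CPM in Ly6c2-negative C1q+ cells (log2 fold change 1.24, adjusted p = 0.00124, and log2 fold change 0.46, adjusted p = 0.0532). Folr2 and Siglec1 were above Ly6c2+ C1q-low cells in each heart, while Siglec1 lost its call without replicate 1 (0.0167) or 3 (0.0204).

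Integrins, the matrix and cell adhesion receptors the study examined, differed by subunit. Of 13 tested, 4 were higher (Itga6, Itga9, Itgav and Itgb5) and 4 lower (Itga1, Itga4, Itgal and Itgb7) than in Ly6c2+ C1q-low cells (median 0.05). Compared with Ly6c2-negative C1q+ cells, 3 were higher (Itga1, Itgal and Itgb7) and 1 lower (Itgb5; median 0.24). Itga6, a subunit of laminin receptors, stood at 135, 175 and 197 CPM in members, against 35.8, 48.2 and 50.8 CPM in Ly6c2+ C1q-low and 233, 212 and 234 CPM in Ly6c2-negative C1q+ cells (log2 fold change 1.92, adjusted p = 9.03e-06, and log2 fold change -0.43, adjusted p = 0.0205). Itgal, the alpha chain of the leukocyte integrin LFA-1, stood at 45.2, 25.3 and 27.8 CPM, against 116, 106 and 131 CPM in Ly6c2+ C1q-low and 17.5, 8.93 and 13.3 CPM in Ly6c2-negative C1q+ cells (log2 fold change -1.85, adjusted p = 9.65e-05, and log2 fold change 1.35, adjusted p = 0.00118). Itga4, part of the VLA-4 integrin of circulating leukocytes, stood at 183, 111 and 176 CPM, against 248, 220.1 and 375 CPM in Ly6c2+ C1q-low and 131, 93.1 and 133 CPM in Ly6c2-negative C1q+ cells (log2 fold change -0.83, adjusted p = 0.000833, and log2 fold change 0.40, adjusted p = 0.0336). Levels of Itga6 and Itgal were intermediate in each heart, and Itga4 overlapped with Ly6c2-negative C1q+ cells.

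Itga5, the alpha chain of the fibronectin receptor, stood at 46.0, 50.3 and 45.8 CPM in members, at 47.3, 42.2 and 49.2 CPM in Ly6c2+ C1q-low cells and at 50.8, 42.8 and 42.8 CPM in Ly6c2-negative C1q+ cells. The ranges overlapped, and no difference passed (log2 fold change 0.05 ± 0.11 SE, adjusted p = 0.798; log2 fold change 0.08 ± 0.096 SE, adjusted p = 0.624). Both signs turned without replicate 2 (-0.06 and -0.02). Itgax, the gene of CD11c, stood at 32.2, 55.5 and 46.2 CPM against 27.6, 24.2 and 40.2 CPM in Ly6c2+ C1q-low cells and did not pass (log2 fold change 0.56, adjusted p = 0.0823). Itgal lost its call against Ly6c2-negative C1q+ cells without doublet barcodes (0.0158) and at no more than 10000 UMIs (0.0676), and Itga4 lost its call against Ly6c2+ C1q-low cells without replicate 3 (0.0126).

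Efferocytosis genes, which serve the clearance of dying cells, were higher in members than in Ly6c2+ C1q-low cells for 7 of 14 tested and lower for 1, Anxa1 (median 0.67). In the other comparison 1 was higher, again Anxa1, and 6 were lower (median -0.39). Axl, a receptor kinase that binds GAS6, stood at 129, 129 and 137 CPM in members, against 44.5, 43.1 and 58.5 CPM in Ly6c2+ C1q-low and 141, 114 and 124 CPM in Ly6c2-negative C1q+ cells (log2 fold change 1.46, adjusted p = 2.04e-05, and log2 fold change 0.08, adjusted p = 0.596). Abca1, a cholesterol exporter, stood at 178, 184 and 231 CPM, against 55.0, 60.8 and 56.0 CPM in Ly6c2+ C1q-low and 334, 290.5 and 326 CPM in Ly6c2-negative C1q+ cells (log2 fold change 1.78, adjusted p = 4.71e-06, and log2 fold change -0.67, adjusted p = 0.000974). Axl overlapped with the level of Ly6c2-negative C1q+ cells, and Abca1 was intermediate in each heart, though its call against those cells was lost without replicate 1 (0.0182).

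Complement genes outside the rule also moved. Of 12 tested, 4 were higher and 1 lower than in Ly6c2+ C1q-low cells (median 0.44), and 2 were higher and 1 lower than in Ly6c2-negative C1q+ cells (median -0.09). C3, the central complement component, stood at 121, 65.4 and 106 CPM in members, between 188, 143 and 195 CPM in Ly6c2+ C1q-low and 51.6, 23.9 and 27.2 CPM in Ly6c2-negative C1q+ cells (log2 fold change -0.87, adjusted p = 0.00461, and log2 fold change 1.55, adjusted p = 0.00036). C4b, a component of the classical pathway, stood at 104, 49.1 and 90.8 CPM, against 29.9, 20.5 and 18.0 CPM in Ly6c2+ C1q-low and 121, 67.1 and 92.7 CPM in Ly6c2-negative C1q+ cells (log2 fold change 1.80, adjusted p = 2.88e-05, and log2 fold change -0.20, adjusted p = 0.25). Cfb, factor B of the alternative pathway, stood at 16.2, 14.2 and 14.3 CPM, above 8.20, 10.5 and 4.95 CPM in Ly6c2+ C1q-low and 4.87, 5.04 and 4.04 CPM in Ly6c2-negative C1q+ cells (log2 fold change 0.91, adjusted p = 0.00981, and log2 fold change 1.69, adjusted p = 0.000298), at a mean under the minimum for ranked genes. C3 was intermediate in each heart, and C4b overlapped with Ly6c2-negative C1q+ cells. Without replicate 1, Cfb lost its calls (0.0968 and 0.0111 against Ly6c2+ C1q-low and Ly6c2-negative C1q+ cells), and against the former C3 and Cfb lost theirs without replicate 2 (0.0371 and 0.0133) or 3 (0.017 and 0.0682).

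Angiogenic and growth factors were divided. Of 16 tested, 6 were higher (Vegfb, Angptl4, Ecm1, Igf1, Pdgfa and Pdgfb) and 3 lower (Emilin2, Osm and Nrg1) than in Ly6c2+ C1q-low cells (median 0.79). Of the same genes, 4 were higher (Emilin2, Tgfb1, Osm and Nrg1) and 2 lower (Vegfb and Pdgfb) than in Ly6c2-negative C1q+ cells (median 0.29). Igf1, insulin-like growth factor 1, stood at 107, 132 and 189 CPM in members, between 16.6, 19.6 and 64.1 CPM in Ly6c2+ C1q-low and 262, 309.7 and 302 CPM in Ly6c2-negative C1q+ cells (log2 fold change 2.23, adjusted p = 0.00047, and log2 fold change -1.08, adjusted p = 0.0103). Vegfa, the main endothelial growth factor, stood at 24.7, 23.4 and 29.7 CPM, against 25.8, 41.9 and 34.0 CPM in Ly6c2+ C1q-low and 14.2, 7.29 and 17.8 CPM in Ly6c2-negative C1q+ cells (log2 fold change -0.40, adjusted p = 0.406, and log2 fold change 1.04, adjusted p = 0.0341). Vegfa passed in neither comparison, but without replicate 2 it was higher than in Ly6c2-negative C1q+ cells (0.0067). Among 15 receptors of chemokines and egress, 3 were higher (Cmklr1, Cx3cr1 and S1pr1) and 3 lower (among them Ccr2) than in Ly6c2+ C1q-low cells (median 0.22), and 4 higher (among them Ccr1 and Ccr2) and 2 lower (Cx3cr1 and S1pr1) than in Ly6c2-negative C1q+ cells (median 0.11).

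Most glycolysis genes were higher in members than in Ly6c2-negative C1q+ cells. Of 14 tested, 0 were higher and 3 lower than in Ly6c2+ C1q-low cells (median -0.30), and 9 were higher and 0 lower than in Ly6c2-negative C1q+ cells (median 0.56). Gapdh, an enzyme of the pathway, stood at 1682, 1264 and 1222 CPM in members, against 1858, 1477 and 1175 CPM in Ly6c2+ C1q-low and 1106, 872 and 879 CPM in Ly6c2-negative C1q+ cells (log2 fold change -0.10, adjusted p = 0.311, and log2 fold change 0.55, adjusted p = 0.000687). Ldha, which makes lactate, stood at 553, 343 and 387 CPM, against 699, 439 and 391 CPM in Ly6c2+ C1q-low and 349, 234 and 280.2 CPM in Ly6c2-negative C1q+ cells (log2 fold change -0.24, adjusted p = 0.0812, and log2 fold change 0.57, adjusted p = 0.00207). Within each heart both exceeded Ly6c2-negative C1q+ cells. Without replicate 1 these calls were lost (0.0185 and 0.0327), as was that of Ldha without replicate 2 (0.0121), and both without the block (0.0664 and 0.139).

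The S100 genes S100a4, S100a6 and S100a10, which encode small calcium-binding proteins, were intermediate. Of 8 tested, 1 was higher and 6 lower than in Ly6c2+ C1q-low cells (median -0.96), and 4 were higher and 1 lower than in Ly6c2-negative C1q+ cells (median 0.59). S100a4 stood at 909, 784 and 611 CPM in members, between 1815, 1802 and 1432 CPM in Ly6c2+ C1q-low and 343, 212 and 267 CPM in Ly6c2-negative C1q+ cells (log2 fold change -1.14, adjusted p = 0.000232, and log2 fold change 1.5, adjusted p = 0.000105). S100a6 stood at 1516, 1305 and 1269 CPM, between 2535, 2621 and 2478 CPM in Ly6c2+ C1q-low and 609, 397 and 545 CPM in Ly6c2-negative C1q+ cells (log2 fold change -0.90, adjusted p = 0.00042, and log2 fold change 1.42, adjusted p = 7.21e-05). Neither overlapped between groups. S100a10, at 765, 618 and 570.3 CPM, had the same order (log2 fold change -0.78, adjusted p = 0.00285, and log2 fold change 1.02, adjusted p = 0.00103), but lost both calls without replicate 1 (0.021 and 0.0213).

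Transcription factors moved in both directions. Of 32 tested, 7 were higher (among them Cebpa, Maf, Pparg and Egr1) and 5 lower (Cebpb, Cebpd, Nr4a1, Nr4a2 and Hif1a) than in Ly6c2+ C1q-low cells (median -0.10). Of the same factors, 5 were higher (Cebpb, Nr4a2, Runx3, Hif1a and Irf5) and 4 lower (Maf, Runx1, Egr1 and Jun) than in Ly6c2-negative C1q+ cells (median 0.10). Cebpb, a factor of myeloid differentiation and inflammation, stood at 1191, 957 and 902 CPM in members, between 1602, 1787 and 1595 CPM in Ly6c2+ C1q-low and 794, 641 and 758 CPM in Ly6c2-negative C1q+ cells (log2 fold change -0.71, adjusted p = 0.000873, and log2 fold change 0.49, adjusted p = 0.00818). Nr4a1, which is needed for non-classical monocytes, stood at 149.6, 168 and 164 CPM, against 215, 299.9 and 362 CPM in Ly6c2+ C1q-low and 136, 115 and 135 CPM in Ly6c2-negative C1q+ cells (log2 fold change -0.84, adjusted p = 0.00242, and log2 fold change 0.33, adjusted p = 0.12). Cebpb was intermediate in each heart, but its call against Ly6c2-negative C1q+ cells was lost without replicate 1 (0.052), 2 (0.0197) or 3 (0.0166), as it was without doublet barcodes (log2 fold change 0.46, adjusted p = 0.0186), and without replicate 3 that of Cebpb (0.0108) and Nr4a1 (0.0348) against Ly6c2+ C1q-low cells was lost. Of 20 immediate-early and heat-shock genes, which can respond to tissue digestion, 2 were higher and 2 lower than in the former (median -0.07) and 3 were higher and 3 lower than in the latter (median -0.01).

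Proliferation genes that passed against Ly6c2-negative C1q+ cells were lower in members. Of 19 tested, 2 were higher and 1 lower than in Ly6c2+ C1q-low cells (median 0.26), and 0 were higher and 3 lower (Mki67, Stmn1 and Ccnb2) than in Ly6c2-negative C1q+ cells (median -0.53). Of all genes tested, 6.97% were higher and 5.98% lower than in the former, and 6.09% and 3.53% than in the latter. Mki67, a marker of cycling cells, stood at 20.5, 17.6 and 33.0 CPM in members, against 26.3, 25.6 and 17.3 CPM in Ly6c2+ C1q-low and 39.1, 41.0 and 56.1 CPM in Ly6c2-negative C1q+ cells (log2 fold change -0.05, adjusted p = 0.909, and log2 fold change -0.94, adjusted p = 0.00866). Its latter call was lost without replicate 1 (0.0589) or 2 (0.0459) and without doublet barcodes (0.0687).

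Granulocyte markers were low in members. The granulocyte list summed to 61.6, 54.3 and 79.9 CPM in members, 66.6 to 78.5 CPM in Ly6c2-negative C1q+ cells and 319 to 1026 CPM in Ly6c2+ C1q-low cells, and 3 of its 10 genes were at 0 in members. Of 5 tested, 3 were lower than in Ly6c2+ C1q-low cells (median -5.51), and 0 passed against Ly6c2-negative C1q+ cells (median 0.11). S100a8, a neutrophil protein, stood at 4.52, 2.16 and 8.42 CPM in members and 434, 161 and 128 CPM in Ly6c2+ C1q-low cells (log2 fold change -5.60, adjusted p = 8.55e-05). Its partner S100a9 stood at 1.06, 2.16 and 1.47 against 434, 267 and 79.6 CPM (log2 fold change -7.36, adjusted p = 0.000292). These folds rested on few cells, since 13, 3 and 6 Ly6c2+ C1q-low cells with at least 10 UMIs of both together held 99.3%, 98.0% and 94.3% of those UMIs. No member of an infarct held as many, and members had 21, 14 and 27 such UMIs in all.

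The B cell list summed to 214 to 301 CPM in members, a range that overlapped both reference groups. The lists of conventional dendritic cells (51.6 to 82.9 CPM) and endothelial cells (21.5 to 27.5 CPM) lay between the groups, above 18.6 to 28.4 and 10.9 to 12.0 CPM in Ly6c2-negative C1q+ cells, and that of non-classical monocytes was 250.2 to 283 CPM, against 205 to 251 CPM there. Their part in the results was not tested. B cell genes were higher for 1 of 6 (Cd79b) and lower for 0 against Ly6c2+ C1q-low cells (median 0.09), with 0 calls against Ly6c2-negative C1q+ cells (median 0.74). Conventional dendritic genes were lower for 2 of 7 against the former (median -1.43) and higher for 2 against the latter (median 1.36). Cd209a, a lectin of monocyte-derived and conventional dendritic cells, stood at 5.85, 19.4 and 4.03 CPM in members, against 53.0, 53.1 and 79.2 CPM in Ly6c2+ C1q-low cells (log2 fold change -2.61, adjusted p = 0.00138), a call lost without replicate 1 (0.0144) or 3 (0.0162). Non-classical monocyte genes were lower for 6 of 9 against the former (median -0.99) and higher for 1, Itgal, against the latter (median 0.58). Endothelial genes had 0 calls of 4 and 1 of 4, and fibroblast genes 0 of 6 in both, with medians of -0.59, 1.03, -1.26 and -1.25. No gene of the T and natural killer list or of the erythroid list was high enough to test.

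Depth changed further calls of named genes. In cells of at most 10000 UMIs, Cd68 (adjusted p = 0.0146), Cfb (0.0159), Hist1h2bc (0.0809), Ifitm1 (0.0125), Nr4a1 (0.0149), S100a9 (0.0174) and Serpinb6a (0.0164) lost the call against Ly6c2+ C1q-low cells, and Itgax gained one (log2 fold change 1.33, adjusted p = 0.00284). Against Ly6c2-negative C1q+ cells Csf1r (0.0623), Ldha (0.0108), Mertk (0.0119) and Mki67 (0.0915) lost theirs, and Ccl8 (log2 fold change -0.95, adjusted p = 0.00554) and Folr2 (-1.04, adjusted p = 0.00875) gained one. With cells gated after thinning, Bst2 (0.201), C3 (0.0551), Cd209a (0.0992), Cd68 (0.0223), Cfb (0.189), Gdf15 (0.297), Il1b (0.0479), Ms4a4c (0.0307) and Siglec1 (0.0379) lost the call against Ly6c2+ C1q-low cells. In the same setting Bst2 (0.0139), Ciita (0.0168), Csf1r (0.0163), Itgal (0.0243) and Mki67 (0.0134) lost it against Ly6c2-negative C1q+ cells. Thinning to 4000 UMIs alone ended the calls of C3 (0.0106), Cd68 (0.0118) and Cfb (0.0324) in the former comparison and of Gm34084 (0.0185) and Itgal (0.0276) in the latter.

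Along C1q, Plac8 was lower in each successive bin of Ly6c2+ cells in each infarct. The cells were binned by C1q, so these levels are a description. Plac8 stood at 3046 CPM below 5 C1q UMIs per 10000 and 644 CPM at 100 or more in replicate 1, at 4332 and 830 CPM in replicate 2, and at 3578 and 595 CPM in replicate 3. Ms4a7 stood at 112 and 1649, at 294 and 2510, and at 281 and 2066 CPM in these bins. From 5 C1q UMIs on it was higher in each successive bin of each heart. H2-Aa stood at 2687, 2413 and 2146 CPM below 5 and at 5444, 4920 and 3790 CPM between 30 and 60, and was 5767, 4674 and 4174 CPM at 100 or more. In replicate 3 it was highest between 15 and 30, at 4898 CPM in 26 cells. Ly6a had its highest level of replicates 2 and 3 between 15 and 30, at 971 and 654 CPM in 28 and 26 cells, but in replicate 1 at 100 or more, at 474 CPM.

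**Figure D5:**
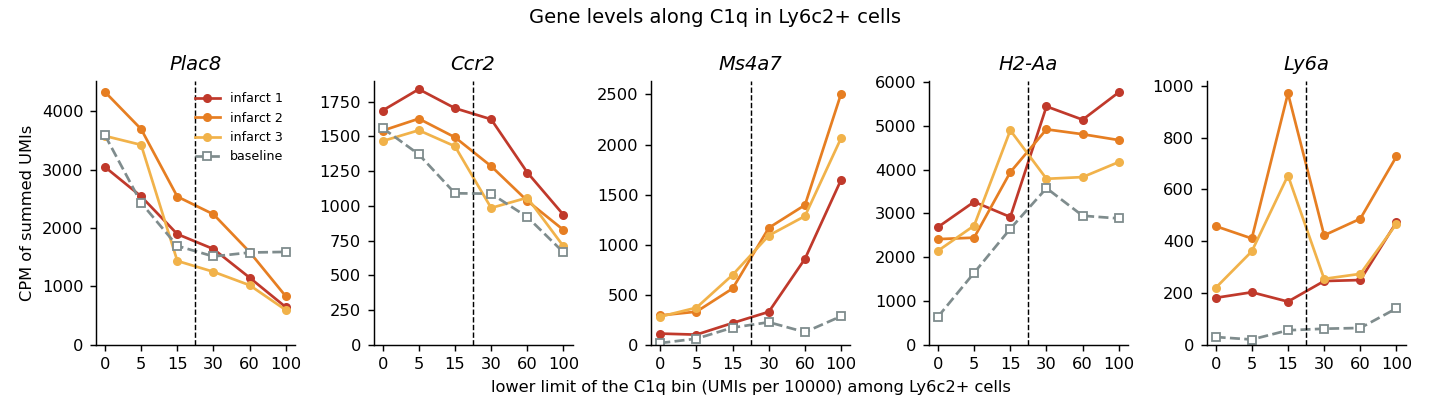
CPM of summed UMIs (vertical axes, linear from 0) of Plac8, Ccr2, Ms4a7, H2-Aa and Ly6a in Ly6c2+ cells binned by C1q UMIs per 10000 (horizontal axis, lower limit of each bin, bins not to scale), 1 line for each library, with the limit of the rule as a dashed line. In infarcts Plac8 falls to 595 to 830 CPM and Ms4a7 rises to 1649 to 2510 CPM in the highest bin.

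Members were also split by Ly6c2 as a description. Plac8 stood at 736, 727 and 441 CPM in members with 2 or 3 Ly6c2 UMIs, and at 1659, 2108 and 1474 CPM in those with 8 or more. Ly6a stood at 209, 330 and 279 CPM in the former and at 487, 1149 and 694 CPM in the latter. Apoe stood at 20959, 30125 and 29236 CPM and at 17176, 18510 and 23889 CPM. Plac8 and Ly6a were thus higher, and Apoe lower, with more Ly6c2 in each heart. Median UMIs were 12031, 11601 and 12204 in the former and 11370, 11026 and 12592 in the latter. H2-Aa stood at 4676, 4734 and 3952 CPM in the former and 5545, 4729 and 4149 CPM in the latter.

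In the baseline library, 116 Ly6c2+ C1q+ barcodes were found, of which 30 were left after doublet removal. Their median C1q was 59.3 UMIs per 10000, against 133 in Ly6c2-negative C1q+ cells. Plac8 stood at 1550 CPM in them, between 3449 and 42.1 CPM. Ms4a7 stood at 199 CPM, between 26.4 and 386 CPM. Both were intermediate there as in infarcts. H2-Aa stood at 3242 CPM, between 779 in Ly6c2+ C1q-low and 5282 in Ly6c2-negative C1q+ cells, and Lyve1 stood at 275 CPM, between 8.84 and 608 CPM. With 1 library, these differences from the infarcts have no replicate check.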

How the data were processed

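Droplet single-cell RNA sequencing (10x Genomics) was performed on sorted EGFP+ Ly6G- cardiac cells. The authors deposited unnormalized UMI counts by gene and barcode, made with Cell Ranger and mm10. The matrix headers and the study's methods name version 3.1.0, and the submitters' processing notes name 3.0.1. Barcodes were kept here at 500 to 40000 UMIs if over 200 genes were detected. The members, gene lists and comparisons were chosen with earlier results of these data known, so no list is independent evidence.

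Counts were summed per library and group without mitochondrial genes. The 9 infarct sums were fitted by quasi-likelihood in edgeR 4.0.16 (R 4.3.3), after filterByExpr and TMM. Each library was a block, since its sums come from the same heart. P-values were adjusted over all genes tested. On simulated sums, 81% of 2-fold and 96% of 4-fold changes were recovered against Ly6c2+ C1q-low cells (10130 genes), and 91% and 97% against Ly6c2-negative C1q+ cells (10345 genes). The simulated hearts did not differ in level, and all genes had the same dispersion (0.00698 and 0.00688). These shares thus do not give the recovery of genes that vary more between hearts. Named genes were, per comparison, the 8 highest and 8 lowest fold changes among those past 0.01 with a mean of at least 50 CPM and the same direction in all 3 libraries, those past in both comparisons with the same sign, and list members. List members with values were chosen after results were seen. Some genes of the lists are not reported here by name.

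Scrublet (scanpy 1.11.5) called 0 to 1 barcodes per infarct library by its automatic threshold, so the highest scores were removed up to 8 per 1000 for every 1000 cells. Other settings were DESeq2 1.42.0 size factors and Wald test, no count filter, no block, 6 sums, each library left out, doublets removed, at most 10000 UMIs, thinning to 4000 or 2000 UMIs, a stricter gate (3 Ly6c2 and 50 C1q UMIs per 10000), Ly6c2 per depth and gating after thinning. Settings with members of 2 or 3, or at least 8, Ly6c2 UMIs were added after the data were seen. In these settings and in the stricter gate, only members met the new limits, and both reference groups stayed as in the main setting. Python 3.11.15, scipy 1.17.1, numpy 2.4.6 and matplotlib 3.10.9 were used. Promoter starts and bases came from RefSeq, and the position of Ly6c2 from GENCODE.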

Additional observations from a re-analysis of the deposited data

Results flagged for a closer look

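In 11 cases, all 3 infarcts moved one way and the baseline library the other way. These differences were not tested, and the baseline is 1 library with 116 members, of which 86 were removed as high-scoring barcodes. Each value is the log2 ratio of the level in members to that in the reference group. Against Ly6c2-negative C1q+ cells, Cd74 stood at -0.63 at baseline and at 0.24 to 0.43 in infarcts, H2-Aa at -0.70 and 0.35 to 0.50, H2-Ab1 at -0.70 and 0.40 to 0.54, and H2-Eb1 at -0.75 and 0.24 to 0.40. Ly6c2-negative C1q+ cells carried 5282 CPM of H2-Aa at baseline and 3155 to 3854 CPM in infarcts. H2-Q7 stood at -0.10 at baseline and at 0.42 to 0.97 in infarcts, and Hist1h2bc at 0.22 and -1.39 to -0.84. Against Ly6c2+ C1q-low cells, Gm34084 stood at -0.091 at baseline and at 0.36 to 0.62 in infarcts.

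The other cases were S100a8 and S100a9. Relative to Ly6c2-negative C1q+ cells S100a8 stood at 3.66 at baseline and at -1.28 to -0.48 in infarcts, and S100a9 at 3.66 and -2.67 to -1.54. Relative to Ly6c2+ C1q-low cells S100a8 stood at 3.28 and -6.30 to -3.78, and S100a9 at 5.70 and -7.72 to -5.03. A single baseline member held 309 of the 320 UMIs of both genes in that group.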

How the results depend on the processing

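Both counts of calls moved with the setting, and at most 6 genes called in the main comparison had the opposite sign in any of them. The 1345 calls against Ly6c2+ C1q-low cells became 612 at no more than 10000 UMIs, 753 after thinning to 4000, 469 when gated after thinning and 433 with at least 8 Ly6c2 UMIs. The 999 calls against Ly6c2-negative C1q+ cells became 582, 626, 511 and 660 in that order, 1688 with no count filter and 238 with 2 or 3 Ly6c2 UMIs. The share of higher calls in the latter was 45.3% with no count filter (765 higher and 923 lower), against 63.3%. Leaving out a library gave 524 to 657 and 205 to 425. Without the replicate block, which pairs the sums of a heart, there were 701 and 213 calls, of which the share higher was 65.1% and 71.4%.

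The share of members moved to 1.99% with doublets removed, 1.51% with the stricter gate, 1.88% with Ly6c2 per depth, 1.52% gated after thinning and 1.25% at no more than 10000 UMIs (2.25% to 2.71% with a library left out). The share of C1q+ among Ly6c2+ cells became 28.2%, 24.2%, 29.3%, 28.0% and 19.6% in that order (33.5% to 35.1%). The 24.2% counted members under the stricter limits beside Ly6c2+ C1q-low cells under the main limits. Cells between those limits were left out, so it is not a share of all Ly6c2+ cells. The UMI ratio to Ly6c2+ C1q-low cells became 1.25 with doublets removed and 1.25 with Ly6c2 per depth (1.32 to 1.42), and that to Ly6c2-negative C1q+ cells 1.28, 1.24 and, with the stricter gate, 1.47 (1.36 to 1.40). The excess of genes over Ly6c2-negative C1q+ cells at equal depth, a mean of 40.5 over 3 hearts, became 30.0, 34.3 and 37.2 in these 3 settings and 33.0 after thinning to 2000 UMIs.

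Among named genes, the signs that turned belonged to differences that had not passed. Itga5 against Ly6c2+ C1q-low cells was -0.060 to 0.11 with a library left out, -0.065 at no more than 10000 UMIs, -0.094 thinned, -0.042 per depth, -0.14 gated after thinning and -0.28 with at least 8 Ly6c2 UMIs. Its value against Ly6c2-negative C1q+ cells was -0.022 to 0.18 with a library left out, -0.037 thinned, -0.014 per depth, -0.082 gated after thinning and -0.25 with at least 8 Ly6c2 UMIs, where Arg1 was -0.15, Axl -0.0031 and Cd68 -0.056. For members with 2 or 3 Ly6c2 UMIs, H2-DMb1 was -0.12, Irf7 -0.19 and Ly6a -0.11 against all Ly6c2+ C1q-low cells. Those reference cells were not split by Ly6c2, and their median was 5, 7 and 7 Ly6c2 UMIs in replicates 1 to 3. The cause of these shifts was not tested. With 3 hearts, no exact permutation test can go below 0.25, and 207 to 307 members per heart limit low genes.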
